A study of Mus musculus with 18 samples.

Results

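Hox genes are homeobox genes, which encode transcription factors and lie in 4 clusters, A to D, on separate chromosomes. Of 23420 gene symbols in the count files, 39 are made of Hox, a cluster letter and a paralog number, and 38 of these are described. A paralog number counts the position in a cluster from its 3′ end, from 1 to 13, and genes with the same number in different clusters descend from a common ancestor. In the embryo, genes with low numbers are switched on first and reach farthest forward, into the hindbrain, while genes with high numbers follow later and are kept to the trunk and tail. Retinoic acid is a textbook inducer of the low-numbered genes, and Hoxb1 carries retinoic acid response elements. Hox proteins bind DNA together with Pbx and Meis proteins.

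Libraries were made from E14, a wild type line of mouse embryonic stem (ES) cells, and from neural cultures grown from it, and RNA was sequenced in 18 libraries, 2 in each of 9 groups. ES cells grown with leukemia inhibitory factor were kept as the control (ES control) or were given GW3965, LG268 or both (each ligand at 1 µM) for 24 h. GW3965 activates the liver X receptors (LXR) and LG268 the retinoid X receptors (RXR), the partners of LXR and of the retinoic acid receptors. The differentiated groups were day 8, day 16, day 16 with GW3965, day 17 and day 17 with GW3965. All 5 passed through embryoid bodies, cell aggregates without the factor that received 5 µM all-trans retinoic acid during 4 days, and were then plated on laminin and poly-L-ornithine in N2 medium, so the untreated cultures had seen retinoic acid too. For the cultures, the labels do not say how long GW3965 was present. The file names read as from day 8 on for the day 16 group and as 24 h for the day 17 group. The file names of the group given both ligands read as a control, and its labels were followed. DMSO is named as the vehicle. Whether the 2 libraries of a group came from separate cultures is not stated, so p-values measure the spread between libraries, which may be technical.

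The libraries held between 16.75 and 44.79 M reads in genes. Levels are given as CPM, the reads of a gene per M reads of its library after TMM scaling. Of the 38 genes, 34 passed the filter on low counts and were tested with 17166 genes in all. Hoxa13, Hoxc11, Hoxc12 and Hoxd12 did not, with 49, 1, 12 and 2 reads over all libraries. A gene is called higher or lower where the adjusted p (edgeR's quasi-likelihood test on 1 fit of all libraries, Benjamini-Hochberg over all genes tested) is below 0.05. The 4 day 17 files list 31.84 to 33.53% of reads as aligned more than once and the 14 other files list 0, so the comparison of day 17 with day 16 cannot be told apart from that difference in the files. The 2 day 16 libraries with GW3965 differed from each other most (a chi-square of 39.94 per gene, 14.51 without Rn45s, a ribosomal RNA gene), followed by those with both ligands (9.672), against 2.741 to 6.738 in the 7 other groups. All libraries are labelled embryonic stem cells, whatever their day. The summed level of 8 pluripotency markers was 2594 to 2616 CPM in ES control and 172 to 183 CPM at day 8, while that of 7 neuron markers was 392 to 395 and 3107 to 3165 CPM. At day 16, 7 mesenchyme markers summed to 9760 to 11217 CPM, against 1444 to 1718 CPM at day 8. In such bulk RNA, fewer cells of a type and less RNA per cell cannot be told apart.

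Some members share sequence with other genes. Over whole transcripts, 0.233% of the 50-base words of Hoxb9 occur in another gene, and 0% of those of Hoxb1. Transcripts on the opposite strand (Hoxb3os) cover 63.9% of the exon bases of Hoxb3 and 58.5% of those of Hoxb2. Gm28230 and other overlapping transcripts cover 79.3% of Hoxd3 and 45.1% of Hoxd4. For Hoxa3, Hoxa7 and Hoxa11 the overlap is 25.1, 23.3 and 24.8%, for Hoxd11 and Hoxd10 (Gm28309) 23.9 and 5.73%, and for Hoxa4 and Hoxa2 16.0 and 15.0%. Hoxd3 and Hoxd4 also share 60.3 and 46.8% of their 50-base words with each other or with these transcripts. The strand setting of the counting is not stated, so the counts of these members are uncertain.

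RefSeq promoter windows (GRCm38.p6, 250 bases before a transcript's start) were matched for 22 of the 38 genes, 24 windows in all. Those of Hoxb1 (chr11:96365508-96365757), Hoxb8 (chr11:96281655-96281904) and Hoxd4 (chr2:74721728-74721977), all on the plus strand, are shown because these genes moved between groups and their windows hold a motif. Capitals mark AGGTCA, the core to which retinoic acid receptors and LXR bind, TGATNNAT, a core bound by Hox and Pbx proteins together, and TATAAA, the TATA box, on either strand.
Hoxb1: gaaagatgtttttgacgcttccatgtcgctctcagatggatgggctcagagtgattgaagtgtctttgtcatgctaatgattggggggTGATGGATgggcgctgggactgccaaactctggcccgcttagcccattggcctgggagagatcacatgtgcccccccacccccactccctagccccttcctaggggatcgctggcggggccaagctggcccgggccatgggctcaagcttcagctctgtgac
Hoxb8: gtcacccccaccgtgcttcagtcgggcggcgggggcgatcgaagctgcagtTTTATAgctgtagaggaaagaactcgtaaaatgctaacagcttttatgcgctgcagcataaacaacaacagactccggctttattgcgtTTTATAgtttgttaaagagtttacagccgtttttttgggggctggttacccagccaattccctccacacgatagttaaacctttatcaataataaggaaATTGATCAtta
Hoxd4: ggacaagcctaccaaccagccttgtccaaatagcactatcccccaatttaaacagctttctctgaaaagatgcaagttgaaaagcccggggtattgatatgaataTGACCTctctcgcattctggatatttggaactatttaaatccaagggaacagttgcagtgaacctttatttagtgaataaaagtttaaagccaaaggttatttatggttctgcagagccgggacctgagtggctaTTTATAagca
AGGTCA stood in 25% of the Hox windows and in 14% of all 32851 windows, TGATNNAT in 16.7 and 7.68%, and TATAAA in 16.7 and 12.4%. TTTATG, a core of Cdx sites, stood in 20.8 and 10.8%, TGACAG, a Meis core, in 8.33 and 15.9%, and the retinoic acid receptor repeat DR5 in 0 and 0.0883%. The Hox windows had a median GC content of 58.6% and a median of 12.5 CpG, against 52.4% and 6 over all windows. In the windows shown no marked match overlaps another. A match describes letters in this window only.

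Hox genes were low in undifferentiated ES cells. The summed level of the 38 genes was 8.88 and 7.15 CPM in the ES control libraries, 7.20 and 6.72 with GW3965, 10.2 and 7.82 with LG268 and 7.24 and 8.29 with both ligands. Of the 38, only Hoxc13, a gene of hair and nail formation, had a mean of 1 CPM or more in ES control, and the same number of members, 1, reached it in each other ES group. Hoxb9 followed at 0.958 ± 0.0132 CPM (SD, n = 2), Hoxd8 at 0.703 ± 0.124 CPM and Hoxd1 at 0.547 ± 0.159 CPM. In ES control 7 members were at 0 counts in both libraries. A count of 0 allows up to 3 counts per library, 0.117 CPM there before TMM scaling.

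**Figure D1:**
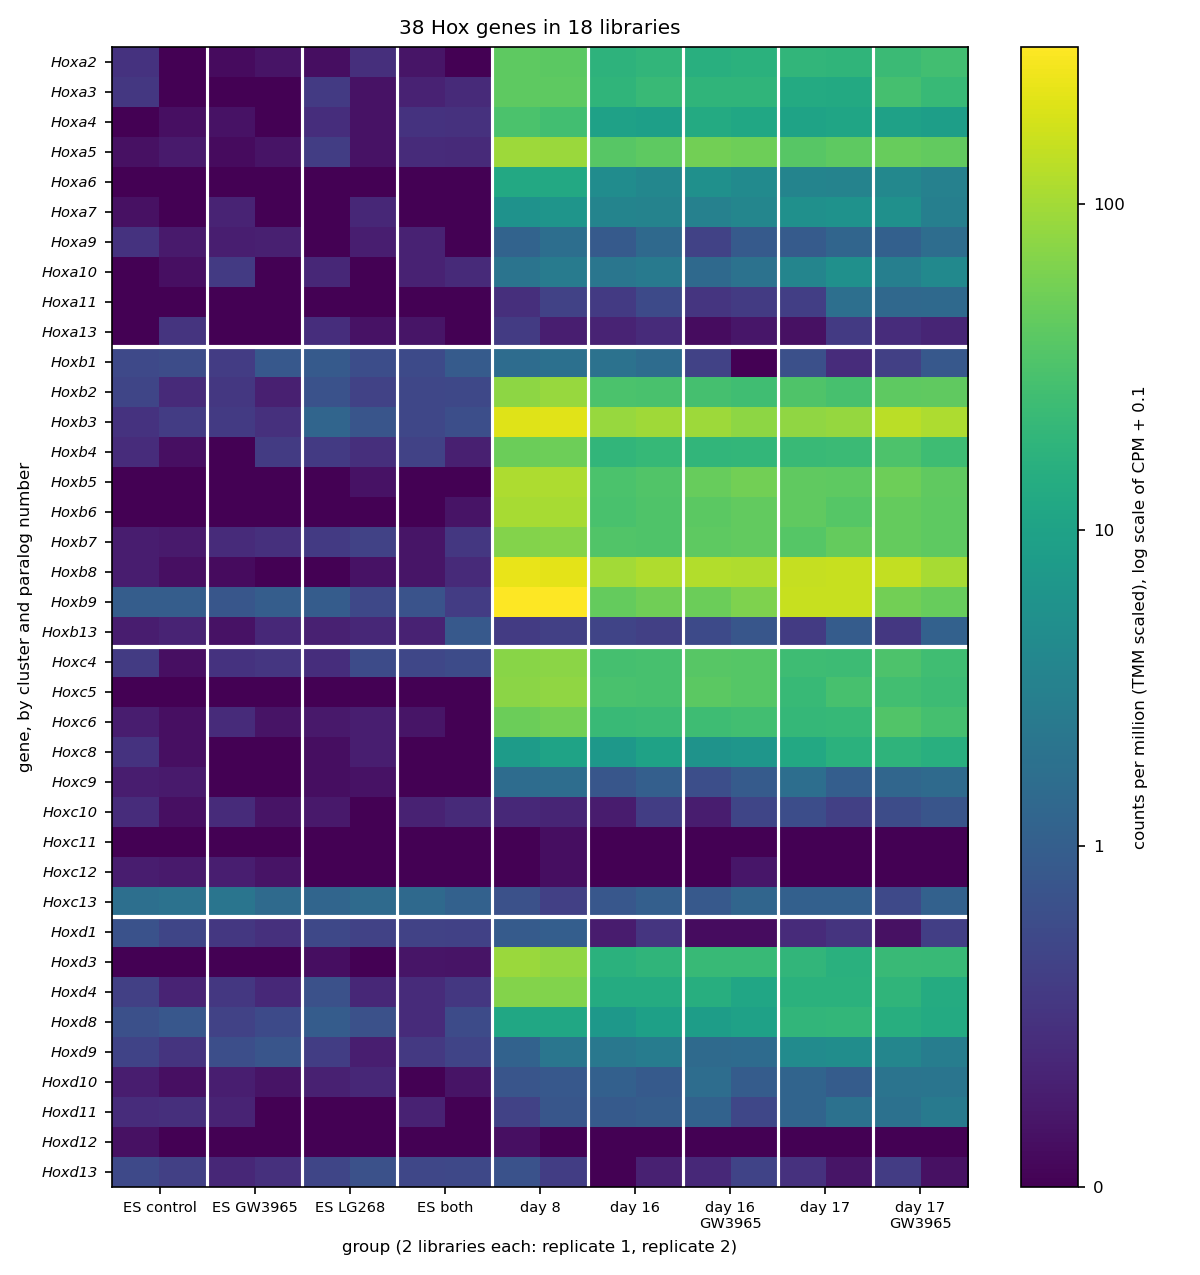
Each row is one of the 38 Hox genes, ordered by cluster and paralog number, and each column is a library, with color giving CPM on a log scale of CPM + 0.1 (the color bar). The 8 ES libraries are dark, with Hoxc13 the brightest row in ES control, and in the 10 libraries of the cultures paralogs 2 to 8 are bright while most of paralogs 10 to 13 remain dark.

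In ES cells none of the members passed edgeR's test against ES control with either ligand or both. With GW3965, 0 of 34 were called and 0.32% of all tested genes were (0.309% higher, 0.0117% lower). edgeR gave an unadjusted p below 0.05 there for 4 members, Hoxa3, Hoxa10, Hoxc8 and Hoxc9, all with 0 counts in 1 library or more, and DESeq2 and limma-voom called 0. With LG268, 0 of 34 were called by edgeR, where 0.851% of all genes were (0.518% higher, 0.332% lower). The unadjusted edgeR p was below 0.05 for 5 members, Hoxa4, Hoxa5, Hoxb3, Hoxb7 and Hoxd11, and DESeq2 called 1 and limma-voom 0. With both ligands, 0 of 34 were called by edgeR, DESeq2 and limma-voom, where edgeR called 11.3% of all genes (4.83% higher, 6.47% lower). There the unadjusted edgeR p was below 0.05 for 6 members, Hoxa4, Hoxb13, Hoxc4, Hoxc8, Hoxc9 and Hoxd8. The groups did not overlap for 38.7% of all genes with GW3965, 44.9% with LG268 and 49.6% with both ligands. For the interaction edgeR, DESeq2 and limma-voom called 0 of 34 members, against 0.134% of all genes by edgeR (0.00583% higher, 0.128% lower), and 1 member, Hoxb7, had an unadjusted p below 0.05. Here and below, counts of members at an unadjusted p have no share of all tested genes beside them and cannot be read as an excess. Hoxb1, which keeps rhombomere 4 of the hindbrain, had 0.483 and 0.553 CPM in ES control, 0.318 and 0.820 with GW3965, 0.881 and 0.572 with LG268 and 0.505 and 0.892 with both ligands. Its difference with LG268 was log2 0.50 ± 0.698 (edgeR adjusted p = 0.905), and the libraries of GW3965 span those of ES control. Hoxd1 had 0.659 and 0.435 CPM in ES control and 0.477 and 0.382 CPM with LG268, and these groups overlap. Its levels of 0.269 and 0.205 CPM with GW3965 (log2 -1.13 ± 0.622, edgeR adjusted p = 0.948) and 0.393 and 0.367 CPM with both ligands (edgeR adjusted p = 0.672) lay below both ES control libraries and were not called.

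Against GW3965, 1 of 34 members was higher with LG268, Hoxb3, where 0.6% of all genes were called (0.285% higher, 0.315% lower) and 43.0% had groups that did not overlap. Hoxb3, which acts in the posterior hindbrain, had 0.294 and 0.205 CPM with GW3965, 1.25 and 0.716 CPM with LG268, 0.220 and 0.316 CPM in ES control and 0.449 and 0.577 CPM with both ligands. The LG268 libraries were above those of the other ES groups. The rise over GW3965 was 3.78-fold (log2 1.92 ± 0.475, edgeR adjusted p = 0.0471), on 16 against 49 reads. The Hoxb3 call was lost when any 1 of the 4 libraries compared was left out (adjusted p = 0.0506 to 0.66) and with limma-voom (adjusted p = 0.412).

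Genes of retinoid handling and Hox partners were called with LG268. Of 19 retinoid genes 2 rose with LG268, Rarb (3.27-fold, edgeR adjusted p = 0.00202), a retinoic acid receptor that retinoic acid induces, and Crabp2 (1.68-fold, edgeR adjusted p = 0.0225), a retinoic acid carrier. With both ligands 3 rose, Rarb, Crabp2 and Stra8, and 1 fell. Over all tested genes 0.851% were called with LG268 and 11.3% with both ligands. Of 9 cofactors 2 rose with LG268, Meis2 (2.32-fold, edgeR adjusted p = 0.000218) and Pknox2 (1.77-fold, edgeR adjusted p = 0.00402), and 3 with both ligands, these and Meis1. Evx1, the homeobox gene next to cluster A, fell with LG268 (3.32-fold, edgeR adjusted p = 0.00291) and with both ligands (3.82-fold, edgeR adjusted p = 0.000439), the only call among 4 tested Cdx and Evx genes. With GW3965 alone 0 of the genes of these 3 lists were called by edgeR. Calls were also made outside these lists. Of 12 hindbrain and spinal patterning genes 1 fell with LG268 and 4 with both ligands. Of 9 tested transcripts within or beside the clusters 0 were called with LG268 and 2 rose with both ligands. Of 19 tested rows of Polycomb and Trithorax genes, regulators of Hox clusters, 0 were called with LG268, and 1 rose and 3 fell with both ligands.

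From ES cells to day 8 nearly the whole series of paralogs 1 to 9 came on. Of 34 tested members 29 rose and 1 fell, where 78.7% of all tested genes were called, 39.7% higher and 39.1% lower. The summed level of the members reached 1761 and 1764 CPM. Of the members of paralogs 5 to 9 that were tested, 15 of 15 rose, of paralogs 1 to 4, 10 of 11, and of paralogs 10 to 13, 4 of 8. The median difference of the 34 was log2 8.14, or 8.02 with the 6 genes at 0 counts in ES control set to their lower bound, beside 0.00 over all tested genes. By mean CPM, 26 members were at 1 or more, 19 at 10 or more and 14 at 50 or more.

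The largest fitted rises were of genes with no read in ES control. Hoxb5 and Hoxb6, genes of the cervical and brachial levels, had 112 and 113 CPM and 107 and 107 CPM at day 8. They stood 965-fold and 919-fold above the floor of 3 counts per library. Hoxd3, a gene of the neck, had 89.2 and 80.7 CPM and stood 728-fold above the floor. Hoxc5 had 74.8 and 78.6 CPM and stood 658-fold above it. Their edgeR adjusted p values ran from 2.51e-17 (Hoxd3) to 1.61e-15 (Hoxc5). In all 4 genes both day 8 libraries were far above both ES libraries, and 90.0% of all tested genes had groups that did not overlap. Hoxb8, at 231 and 220 CPM, rested on 3 reads in ES control, a ratio of 3961 with a 95% counting interval of 1355 to 19211. Hoxa5, a gene of lung and phrenic motor neuron development, had 93.2 and 90.8 CPM at day 8 on 3 reads in ES control, a ratio of 1619 (554 to 7855). Floors and ratios used library totals without TMM scaling. With the TMM factors of ES control, 0.9342 and 0.929, the floor would be higher and the folds above it somewhat smaller. The fitted differences were log2 11.71 for Hoxb8 and 10.42 for Hoxa5. Intervals and floors cover counting error only.

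Hoxb1 had 1.59 and 1.80 CPM, 3.24-fold above ES control (log2 1.70 ± 0.641, edgeR adjusted p = 0.0179). The Hoxb1 call was lost without day 8 replicate 2 or either ES control replicate (adjusted p = 0.0642 to 0.0824). Hoxd1 had 0.890 and 1.01 CPM and was not called. The single fall was Hoxc13, at 1.76 and 1.94 CPM in ES control and 0.619 and 0.359 CPM at day 8 (3.81-fold, log2 -1.93 ± 0.427, edgeR adjusted p = 0.000276). Hoxd11, a trunk and limb gene with 0.387 and 0.751 CPM, was called at an adjusted p of 0.0497 by edgeR and lost the call in 8 alternatives, with adjusted p = 0.0506 to 0.321.

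Levels per kilobase of exon at day 8 differed by cluster. In cluster B they were high from Hoxb2 to Hoxb9, from 19.8 ± 0.319 CPM per kb (SD, n = 2) for Hoxb4 to 116 ± 1.52 CPM per kb for Hoxb9, a gene of the thoracic level. Hoxb8 came next at 85.5 ± 3.09, followed by Hoxb5 at 59.4 ± 0.145 and Hoxb3 at 58.3 ± 1.47, which lie within their spread of each other. Hoxb6 at 54.6 ± 0.175, Hoxb7 at 53.7 ± 1.05 and Hoxb2 at 51.2 ± 4.51 CPM per kb were also within their spread. Hoxb1 and Hoxb13, the ends of the cluster, were at 0.811 and 0.152 CPM per kb. Cluster A peaked at Hoxa5 with 49.0 ± 0.906 CPM per kb. Hoxa2 (22.7 ± 0.562), which patterns the branchial arches, Hoxa4 (18 ± 2.17), Hoxa3 (16.0 ± 0.0833) and Hoxa6 (14.2 ± 0.0606) followed, with Hoxa7 at 2.48 ± 0.187.

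In cluster C the highest were Hoxc6 (33.2 ± 2.48 CPM per kb), which marks limb-level motor neurons, Hoxc4 (28.6 ± 0.353) and Hoxc5 (26.2 ± 0.924). In cluster D they were Hoxd3 (26.2 ± 1.85) and Hoxd4 (26.0 ± 0.385), which did not differ beyond their spread. In clusters A, C and D, paralog 9 was below 1 CPM per kb: Hoxa9 at 0.449 ± 0.11, Hoxc9, the gene of thoracic motor neurons, at 0.686 ± 0.00259 and Hoxd9 at 0.799 ± 0.362. Hoxb9 thus stood apart from its 3 paralogs, and cluster B held 64.4 ± 0.141% of the summed Hox level per kb. Paralogs 10 to 13 held 0.331 ± 0.0332% of it, paralogs 5 to 9 65.1 ± 0.141% and paralogs 1 to 4 34.5 ± 0.0707%. These levels depend on the exon lengths of GENCODE M21.

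**Figure D2:**
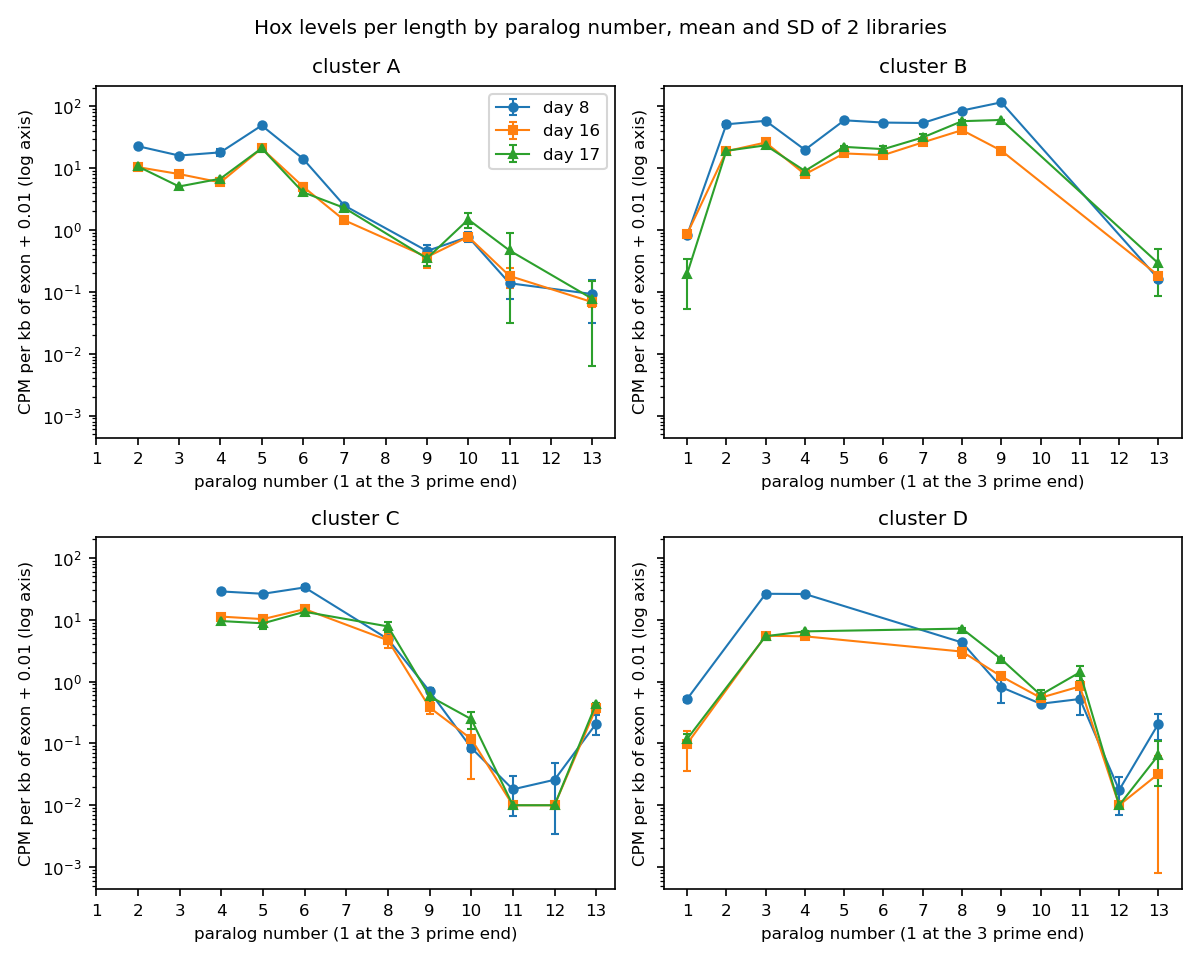
Mean level with SD (2 libraries) in CPM per kb of exon + 0.01, on a log axis, by paralog number from the 3′ end, for day 8, day 16 and day 17 without GW3965 in each cluster. At day 8 levels are lower beyond Hoxa6, Hoxb9, Hoxc6 and Hoxd4 than at these genes, and the day 8 line lies above the others from paralog 2 to 6.

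Paralogs 10 to 13, which pattern the lumbar, limb and tail levels, were low in all libraries, and none exceeded the 5.48 CPM of Hoxa10. In the 10 culture libraries Hoxa10 had 1.45 CPM or more, Hoxd10 0.735 or more and Hoxd11 0.387 or more. Over all 18 libraries Hoxa10 ran from 0 to 5.48 CPM, Hoxa11 from 0 to 1.75, Hoxa13 from 0 to 0.309, Hoxb13 from 0.0489 to 1.09 and Hoxc10 from 0 to 0.715 CPM. Hoxc11 and Hoxc12 reached at most 0.0327 and 0.0979 CPM, Hoxd12 at most 0.0440 CPM. Hoxd10 ran from 0 to 2.14, Hoxd11 from 0 to 2.61, Hoxd13, a gene of digit formation, from 0 to 0.658 and Hoxc13 from 0.359 to 2.15 CPM. In the cultures these paralogs together held between 0.307 and 2.10% of the Hox level per kb.

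Over the 10 libraries of the cultures cluster B had Hoxb9 at 45.7 to 302, Hoxb8 at 100 to 231, Hoxb3 at 76.2 to 209, Hoxb5 at 31.6 to 113, Hoxb6 at 30.3 to 107, Hoxb2 at 26.0 to 88.6, Hoxb7 at 33.3 to 70.3 and Hoxb4 at 19.7 to 51.5 CPM. In cluster A, Hoxa5 ran from 37.5 to 93.2, Hoxa3 from 12.8 to 41.6, Hoxa2 from 15.7 to 41, Hoxa4 from 8.96 to 31.1, Hoxa6 from 3.28 to 12.5, Hoxa7 from 3.11 to 6.5 and Hoxa9 from 0.393 to 1.7 CPM. Cluster C had Hoxc5 at 22.2 to 78.6, Hoxc4 at 24.1 to 74.1, Hoxc6 at 20.8 to 55.3, Hoxc8 at 5.96 to 18.1 and Hoxc9 at 0.575 to 1.71 CPM. Most of these genes had their highest level at day 8. In cluster D, Hoxd3 ran from 15.9 to 89.2, Hoxd4 from 11.4 to 67.2, Hoxd8 from 7.16 to 19.8, Hoxd9 from 1.16 to 5.02 and Hoxd1 from 0.0303 to 1.01 CPM, and Hoxd8 and Hoxd9 were highest at day 17.

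Between day 8 and day 16 most tested Hox genes of paralogs 1 to 9 fell. Of 34 members 22 fell and 0 rose by edgeR, where 61.6% of all tested genes were called (29.4% higher, 32.2% lower). By paralog 10 of 11 tested members of paralogs 1 to 4, 11 of 15 of paralogs 5 to 9 and 1 of 8 of paralogs 10 to 13 fell. The median difference was log2 -1.09, against -0.04 over all tested genes. The sum of the members was 612 and 666 CPM at day 16. The 1 fall among paralogs 10 to 13 was Hoxd13 (0 and 0.110 CPM), on 27 reads at day 8 and 4 at day 16, and its call was lost without day 16 replicate 1 or day 8 replicate 1 (adjusted p = 0.063 and 0.0829). 

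Among members with a mean of 1 CPM or more in either group, the largest fall was of Hoxb9, from 302 and 297 CPM at day 8 to 45.7 and 53.3 CPM at day 16 (6.03-fold, log2 -2.59 ± 0.101, edgeR adjusted p = 1.04e-13). Hoxd4 fell 4.83-fold, from 67.2 and 65.8 to 13.7 and 13.8 CPM (log2 -2.27 ± 0.165, edgeR adjusted p = 7.31e-10). Its neighbor Hoxd3 fell 4.75-fold, from 89.2 and 80.7 to 16.8 and 18.9 CPM (log2 -2.25 ± 0.108, edgeR adjusted p = 1.01e-11). Hoxb5 fell 3.43-fold, from 112 and 113 to 31.6 and 33.9 CPM (log2 -1.78 ± 0.103, edgeR adjusted p = 2.55e-10). The groups did not overlap for any of these 4, as for 82.5% of all tested genes. Hoxb1 was not called, at 1.93 and 1.62 CPM (log2 0.06 ± 0.528, edgeR adjusted p = 0.93). Hoxd1 fell to 0.0823 and 0.248 CPM. The 16 other falls, Hoxd1 and Hoxd13 aside, were of 1.39-fold (Hoxd8) to 3.35-fold (Hoxb6). Hoxa7 and Hoxd8 lost the call when single libraries were left out (adjusted p = 0.0518 to 0.114 for Hoxa7 and 0.051 to 0.182 for Hoxd8).

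At day 17 Hoxb9, Hoxb8 and Hoxd8 were above day 16, with 6 other members, and Hoxa3 and Hoxb1 were below it. Of 34 members 9 rose and 2 fell, where 56.2% of all tested genes were called (26.8% higher, 29.5% lower). Of paralogs 5 to 9, 8 of 15 rose and 0 fell. Of paralogs 1 to 4, 0 of 11 rose and 2 fell. The median difference was log2 0.24, against -0.02 over all tested genes. Hoxb9 rose 3.12-fold, from 45.7 and 53.3 to 155 and 156 CPM (log2 1.64 ± 0.102, edgeR adjusted p = 5.86e-11). Hoxd8 rose 2.34-fold, from 7.16 and 9.53 to 19.6 and 19.8 CPM (log2 1.23 ± 0.171, edgeR adjusted p = 4.11e-06). Hoxd9 rose 1.89-fold, from 2.35 and 2.78 to 4.74 and 5.02 CPM (edgeR adjusted p = 0.0148). Hoxa10, a lumbar gene, rose 1.89-fold, from 2.26 and 2.56 to 3.76 and 5.48 CPM (edgeR adjusted p = 0.0421).

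The other rises were of Hoxb5, Hoxb6, Hoxb7, Hoxb8 and Hoxc8, by 1.20-fold (Hoxb7) to 1.66-fold (Hoxc8). Hoxc8, a brachial gene, had 7.16 and 10.1 CPM at day 16 and 12.6 and 16.4 CPM at day 17, and Hoxb8 had 100 and 117 CPM and then 149 and 154 CPM. Hoxa3, a gene of the pharyngeal arches and neck, fell 1.59-fold, from 19.1 and 22.5 to 13.4 and 12.8 CPM (log2 -0.67 ± 0.178, edgeR adjusted p = 0.00335). Hoxb1 fell 4.28-fold, from 1.93 and 1.62 to 0.598 and 0.175 CPM (log2 -2.10 ± 0.703, edgeR adjusted p = 0.0107). The groups of these named genes did not overlap, as for 77.7% of all tested genes. The calls of Hoxb8, Hoxb9 and Hoxd8 held in all 11 alternatives. Each of the 8 other calls was lost when 1 library or another was left out: Hoxa3 without day 16 replicate 2 (adjusted p = 0.053), Hoxb1 without day 17 replicate 2 (adjusted p = 0.103), and the 6 others without 2 or 3 of the libraries in turn (adjusted p = 0.0564 to 0.457). Without day 16 replicate 1, 5 members were called and without day 17 replicate 2, 7, with adjusted p values of 0.457 for Hoxb7 and 0.273 for Hoxa10 in the latter. Hoxb7 was also lost with DESeq2 (adjusted p = 0.0535). The mean paralog number, weighted by level per kb, was 5.45 and 5.53 at day 16 and 6.11 and 6.19 at day 17. Hoxb9 alone went from 19.2 ± 2.07 to 60.2 ± 0.282 CPM per kb, and its part in this mean was not tested. The 5 astrocyte markers summed to 845 to 878 CPM at day 16 and 2636 to 2968 CPM at day 17 (3 higher, 2 lower). The 6 progenitor markers summed to 1867 to 1991 and 992 to 1065 CPM (5 lower, 0 higher). The part of these markers in the Hox differences was not tested.

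With GW3965 at day 16, Hoxb5 and Hoxa5 rose, with 6 other members, and Hoxb1 fell. Of 34 members 8 rose and 1 fell, where 31.7% of all tested genes were called (13% higher, 18.7% lower). The median difference was log2 0.12, against -0.03 over all tested genes. Of paralogs 5 to 9, 5 of 15 rose, of paralogs 1 to 4, 3 of 11 rose and 1 fell, and of paralogs 10 to 13, 0 of 8 were called by edgeR, with an unadjusted p below 0.05 for 1. Hoxb5 rose most, from 31.6 and 33.9 CPM to 47.1 and 55.3 CPM (1.56-fold, log2 0.64 ± 0.105, edgeR adjusted p = 0.000174). Hoxa5 rose 1.34-fold, from 37.7 and 40.9 to 54.2 and 51.5 CPM (log2 0.43 ± 0.0931, edgeR adjusted p = 0.00154). Hoxb6 rose 1.33-fold, from 30.3 and 33.5 to 40.4 and 44.5 CPM (edgeR adjusted p = 0.00391). Hoxa4 rose 1.35-fold, from 9.75 and 9 to 13.3 and 11.9 CPM (edgeR adjusted p = 0.0399). The treated libraries lay above the untreated ones in each of these, and 66.2% of all tested genes had groups that did not overlap. Hoxb7, Hoxc4, Hoxc5 and Hoxd3 rose 1.23-fold (Hoxd3) to 1.29-fold (Hoxc4).

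The fall was of Hoxb1, from 1.93 and 1.62 CPM (47 and 59 reads) to 0.393 and 0 CPM (13 and 0 reads), 8.77-fold as fitted (log2 -3.13 ± 0.752, edgeR adjusted p = 0.00148). It held in all 12 alternatives, at log2 -8.47 to -2.15, the first of them without the library that has 13 reads. Of the 8 rises only those of Hoxa5 and Hoxb5 held in all alternatives. Hoxb6 was lost without day 16 replicate 1 (adjusted p = 0.051), Hoxb7 without day 16 replicate 2 or treated replicate 2 (adjusted p = 0.0775 and 0.071), and Hoxa4, Hoxc4 and Hoxd3 without any 1 of the 4 libraries (adjusted p = 0.0537 to 0.259). Hoxd3 was also lost without a filter on low counts (adjusted p = 0.0512) and with a replicate block (adjusted p = 0.054). Hoxc5 was lost without either day 16 library or treated replicate 1 (adjusted p = 0.093 to 0.157). Without day 16 replicate 1, day 16 replicate 2 or treated replicate 2, 5, 4 and 5 members were called.

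Cell type markers also differed in this comparison. All 7 mesenchyme markers were lower with GW3965, with summed levels of 4518 to 5711 CPM against 9760 to 11217 CPM, and all 7 neuron markers were higher, at 2393 to 2564 CPM against 1581 to 1600 CPM. Of 5 astrocyte markers 4 were lower (356 to 496 against 845 to 878 CPM) and of 6 progenitor markers 5 were lower (1403 to 1487 against 1867 to 1991 CPM). No member of these 4 lists averaged under 1 CPM in either group. Mesoderm markers summed to 7.47 to 8.53 CPM against 28.2 to 32.6 CPM (4 of 6 lower, 3 under 1 CPM with GW3965) and pluripotency markers to 114 to 126 against 162 to 183 CPM (6 of 8 lower, 1 higher, 2 under 1 CPM with GW3965). Their part in the Hox differences was not tested. Of 19 retinoid genes 13 fell and 1 rose, with Cyp26b1, which breaks down retinoic acid, down 5.48-fold (edgeR adjusted p = 3.37e-05) and Crabp2 and Crabp1, retinoic acid carriers, down 4.04-fold (edgeR adjusted p = 2.01e-08) and 2.28-fold (edgeR adjusted p = 1.22e-06). Of 12 hindbrain and spinal patterning genes 5 fell, led by T, also a gene of early mesoderm (77.5-fold, edgeR adjusted p = 2.01e-08), and 0 rose.

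At day 17 GW3965 went with lower Hoxb9 and with higher Hoxa3, Hoxb2, Hoxb3, Hoxc6 and Hoxd3. Of 34 members 5 rose and 3 fell, where 35.2% of all tested genes were called (17.2% higher, 18% lower). The median difference was log2 0.21, against 0.02 over all tested genes. Of paralogs 1 to 4, 4 of 11 rose and 0 fell, and of paralogs 5 to 9, 1 of 15 rose and 3 fell. Of paralogs 10 to 13, 0 of 8 were called by edgeR, with an unadjusted p below 0.05 for 1. Hoxb9 fell 3.02-fold, from 155 and 156 CPM to 55.5 and 47.2 CPM (log2 -1.59 ± 0.103, edgeR adjusted p = 1.03e-09). Both treated libraries were near the levels of day 16 (45.7 and 53.3 CPM) and of day 16 with GW3965 (50 and 63.2 CPM). The 2 day 17 libraries without GW3965 are the high ones among the later cultures. The Hoxb9 call held in all 11 alternatives.

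Hoxb8 had 149 and 154 CPM without and 143 and 105 CPM with GW3965, a fall of 1.22-fold (log2 -0.29 ± 0.102, edgeR adjusted p = 0.0345). Hoxd8 fell 1.37-fold, from 19.6 and 19.8 to 15.1 and 13.5 CPM (log2 -0.46 ± 0.168, edgeR adjusted p = 0.0409). The Hoxb8 difference was log2 -0.09 without treated replicate 2 (adjusted p = 0.53), and its call was also lost without either day 17 library (adjusted p = 0.0712 and 0.143) and in a fit of the 2 groups alone (adjusted p = 0.0607). The Hoxd8 call was lost without any 1 of the 4 libraries (adjusted p = 0.0685 to 0.195). The paralogs of Hoxb9 were at 0.896 and 1.28 CPM without and 1.07 and 1.64 CPM with GW3965 for Hoxa9, at 1.71 and 0.991 against 1.29 and 1.51 CPM for Hoxc9, and at 4.74 and 5.02 against 3.88 and 2.86 CPM for Hoxd9. None of these 3 was called by edgeR.

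Among the rises, Hoxa3 went from 13.4 and 12.8 CPM to 28.4 and 21.8 CPM (1.91-fold, log2 0.93 ± 0.179, edgeR adjusted p = 0.000489). Hoxb3 rose 1.5-fold, from 79.5 and 85.1 to 132 and 114 CPM (log2 0.58 ± 0.0922, edgeR adjusted p = 6.54e-05). Hoxb2, a gene of the hindbrain segments, rose 1.35-fold, from 32.9 and 29.3 to 41.9 and 42.3 CPM (log2 0.43 ± 0.111, edgeR adjusted p = 0.00477). Hoxc6 rose 1.47-fold, from 20.8 and 21.5 to 33.7 and 28.3 CPM (log2 0.55 ± 0.117, edgeR adjusted p = 0.00107). Hoxd3 rose 1.27-fold, from 19.2 and 15.9 to 22.5 and 22.3 CPM (log2 0.35 ± 0.117, edgeR adjusted p = 0.0266). In each of the 5 genes both treated libraries were above both untreated ones, and 66.1% of all tested genes had groups that did not overlap. Hoxa3, Hoxb3 and Hoxc6 held in all 11 alternatives. Hoxb2 was lost without day 17 replicate 2 (adjusted p = 0.061), and Hoxd3 without day 17 replicate 2 or either treated library (adjusted p = 0.0839 to 0.236). Without day 17 replicate 2 or treated replicate 2, 5 members were called. Hoxb1 (0.598 and 0.175 against 0.357 and 0.799 CPM) was not called.

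**Figure D3:**
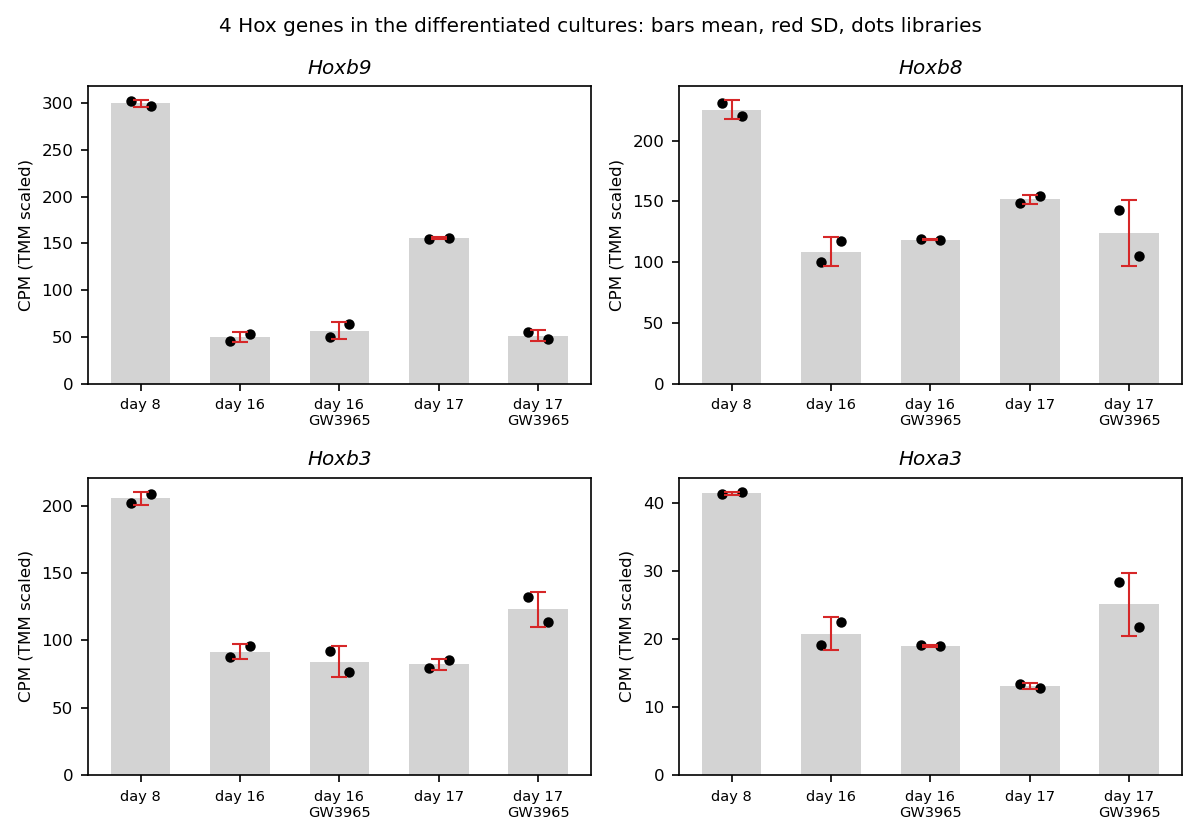
Bars give the mean, red lines the SD and dots the 2 libraries of each culture group for Hoxb9, Hoxb8, Hoxb3 and Hoxa3, in CPM, each panel with its own axis from 0. Hoxb9 stands at 155 and 156 CPM at day 17 and between 45.7 and 63.2 CPM in the 6 libraries of day 16, day 16 with GW3965 and day 17 with GW3965.

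The comparison of day 17 with day 16 and that of day 17 with and without GW3965 share the day 17 libraries. Side by side, the first gave log2 1.64 and the latter -1.59 for Hoxb9, 1.23 and -0.46 for Hoxd8, 0.48 and -0.29 for Hoxb8, and -0.67 and 0.93 for Hoxa3, and the 2 sets of values are not independent. These genes were the members called in both comparisons. Others called in the first were not called in the latter. Of these, Hoxb5 and Hoxb6 had means of 41.9 and 39.9 CPM at day 17 and 46.9 and 43.6 CPM with GW3965. Hoxb7 and Hoxc8 were also higher by mean, at 40.5 and 14.5 against 43.2 and 16.9 CPM. Hoxa10, Hoxd9 and Hoxb1 had means of 4.62, 4.88 and 0.386 CPM at day 17 and 3.68, 3.37 and 0.578 CPM with GW3965. For Hoxa10 and Hoxb1 the libraries of these groups overlap. The mean paralog number weighted by level per kb was 6.11 and 6.19 in the day 17 libraries and 5.51 and 5.43 in those with GW3965, against 5.45 and 5.53 for day 16 and 5.52 and 5.65 for its treated libraries. Hoxb9 alone was at 60.2 ± 0.282 CPM per kb at day 17 and 20.0 ± 2.27 with GW3965, and its part in this mean was not tested. The summed Hox level at day 17 was 803 and 827 CPM without and 848 and 730.0 CPM with GW3965, and the groups overlap. Progenitor markers summed to 992 to 1065 CPM without and 1545 to 1686 CPM with GW3965 (4 of 6 higher). Astrocyte markers summed to 2636 to 2968 and 1642 to 2155 CPM (3 of 5 lower, 1 higher). Neuron markers summed to 1202 to 1238 and 1428 to 1552 CPM (3 of 7 higher, 2 lower). Mesenchyme markers summed to 8167 to 9146 and 7994 to 8939 CPM (2 of 7 higher, 1 lower). Of 9 forebrain and midbrain markers 4 were higher with GW3965, at 40.5 to 52.7 against 27.9 to 28.8 CPM. No member of these 5 lists averaged under 1 CPM. Mesoderm markers summed to 45.8 to 47.5 CPM without and 28.0 to 29.2 CPM with GW3965 (1 of 6 lower) and pluripotency markers to 221 to 250 and 233 to 250 CPM (4 of 8 higher, 2 lower). Their part in the Hox differences was not tested.

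**Figure D4:**
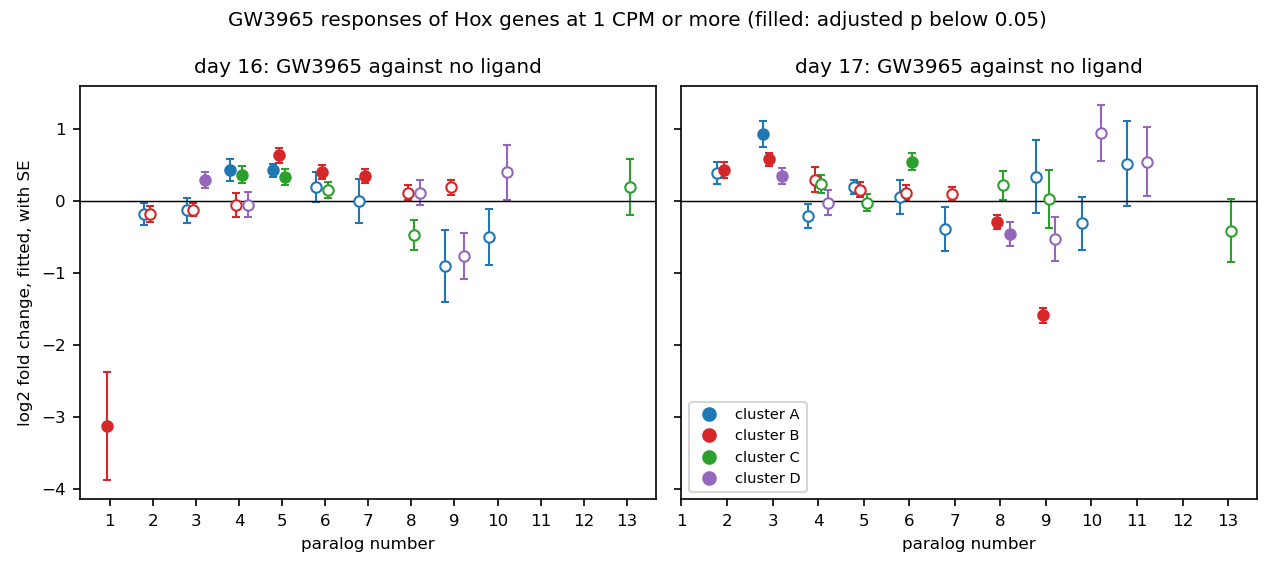
Fitted log2 fold change of GW3965 against no ligand with its SE, by paralog number and cluster (color), at day 16 (left) and day 17 (right), for members with a mean of 1 CPM or more in either group; filled points have an adjusted p below 0.05. At day 16 the lone filled point below 0 is Hoxb1 at -3.13, and at day 17 the lowest point is Hoxb9 at -1.59 while Hoxa3 is highest among the filled points at 0.93.

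The responses to GW3965 at the 2 days were compared directly, as the day 17 response minus the day 16 response. For 9 of 34 members this difference was called, 5 higher and 4 lower, where 37% of all tested genes were called (20% higher, 17% lower). Hoxb9 had the smallest adjusted p, with log2 -1.78 ± 0.147 (edgeR adjusted p = 2.57e-08), from a day 16 response of 45.7 and 53.3 to 50 and 63.2 CPM that was not called. Hoxb1 differed by log2 3.63 ± 1.09 (edgeR adjusted p = 0.00955), Hoxa3 by log2 1.07 ± 0.246 (edgeR adjusted p = 0.00206) and Hoxb3 by log2 0.70 ± 0.129 (edgeR adjusted p = 0.000266). The day and the length of the GW3965 treatment differ between these groups by the file names. Only the day 17 files list reads aligned more than once, and these differences cannot be told apart. Against the response in ES cells, 1 of 34 members was called at day 16 (14.8% of all genes, 4.86% higher and 9.89% lower), Hoxb1 at log2 -3.12, and 2 of 34 at day 17 (18.2% of all genes, 8.59% higher and 9.65% lower), Hoxa3 and Hoxb9.

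The related lists over the time course are given beside the share of all tested genes called, 78.7% by day 8, 61.6% from day 8 to day 16 and 56.2% from day 16 to day 17, and, with GW3965, 31.7% at day 16 and 35.2% at day 17. Of 9 cofactors 8 rose and 1 fell from ES control to day 8, led by Meis1 (log2 7.48 ± 0.226, edgeR adjusted p = 5.79e-19) and Meis2 (log2 6.70 ± 0.141, edgeR adjusted p = 2.98e-20), and 8 fell from day 8 to day 16. Of the 4 tested Cdx and Evx genes, Cdx4 and Cdx1, which set trunk Hox levels in the embryo, fell by day 8 (106-fold and 14.3-fold, edgeR adjusted p = 6.56e-09 and 0.000709) and Evx1 rose 1.65-fold. Of 19 retinoid genes 14 rose and 2 fell by day 8, led by Rarb (97.2-fold, edgeR adjusted p = 3.74e-17). From day 8 to day 16, 6 of the retinoid genes rose and 11 fell. Of 12 hindbrain and spinal patterning genes 7 rose and 3 fell by day 8. From day 16 to day 17, 3 of them rose and 2 fell, and with GW3965 at day 17, 1 rose and 3 fell. Among them Egr2, a gene of rhombomeres 3 and 5, was 6.44-fold above day 16 at day 17 (edgeR adjusted p = 1.5e-06) and 7.76-fold lower with GW3965 (edgeR adjusted p = 3.38e-06), 2 comparisons that share the day 17 libraries. Of 9 tested transcripts within or beside the clusters 7 rose and 2 fell by day 8. Of 19 tested rows of Polycomb and Trithorax genes, which keep Hox clusters silent or active, 10 rose and 8 fell by day 8. Between day 8 and day 16, 2 of these rows rose and 15 fell. At day 17 without ligand, against day 16, 3 cofactors rose and 4 fell, 3 retinoid genes rose and 9 fell, and 7 Polycomb and Trithorax rows rose and 8 fell. With GW3965 the cofactors had 2 rises and 1 fall at day 16 and 3 and 2 at day 17, the retinoid genes 5 rises and 3 falls at day 17, and the Polycomb and Trithorax rows 0 rises and 8 falls at day 16 and 5 and 3 at day 17.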

How the data were processed

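RNA of 18 libraries, 2 in each of 9 groups, was measured as deposited counts of reads per gene, 1 file per library. Per the submitters' processing notes, mm10, TopHat2 2.0.7, Cufflinks 2.0.2, HTSeq 0.6.0 and Cuffdiff 2.0.2 were used. Their roles, the annotation and the strand setting are not given in the sources used here. The 5 summary lines of each file (reads without a gene and the like) were kept out: reads with no feature were 62.77 to 65.92% in 14 files and 42.14 to 43.36% in the 4 day 17 files. Columns of other samples numbered 0. Groups came from the labels' titles.

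edgeR 4.0.16 in R 4.3.3 (filterByExpr, TMM, glmQLFit and glmQLFTest, two-sided) was fitted to all libraries and 9 groups, with 9 residual degrees of freedom and a common biological coefficient of variation of 6.471%. 9 comparisons between groups and 4 differences between responses were tested, with Benjamini-Hochberg adjustment over 17166 genes. Gene counts per library (median 23.515 M reads) limit the precision of low genes. DESeq2 1.42.0, limma-voom (limma 3.58.1), other filters and scalings, a replicate block and leaving out each library were alternatives. The fit was also run on simulated counts, and the outcome is not given here. Exon overlaps and lengths came from GENCODE M21. The members and lists were chosen with earlier results of these data known. 1 member is not reported here and is left out of every count of members. All others are named, called members each where up to 8 were called, otherwise the 4 largest rises and falls with a mean of at least 1 CPM, Hoxb1 always, and up to 3 genes per related list.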

Additional observations from a re-analysis of the deposited data

Results flagged for a closer look

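Differences between the GW3965 responses of 2 settings, tested as such in the edgeR quasi-likelihood fit, were called for these members. The day 16 response minus that in ES cells was log2 -3.12 ± 1.04 for Hoxb1 (edgeR adjusted p = 0.0426). The day 17 response minus that in ES cells was log2 -1.39 ± 0.393 for Hoxb9 (edgeR adjusted p = 0.0186) and 5.67 for Hoxa3 (edgeR adjusted p = 0.039). The Hoxa3 value is no bound, since both ES libraries with GW3965 had 0 counts, and it was 0.93 (adjusted p = 1) without ES control replicate 1. Its call was also lost with limma-voom (adjusted p = 0.16), without either library of GW3965 in ES cells (0.19 and 0.0808) and without either day 17 library (0.0532 and 0.0575), 6 of 15 alternatives. The Hoxb1 call was lost in 8 alternatives (adjusted p = 0.0542 to 0.197), among them leaving out either library of ES control or of day 16. The Hoxb9 call was lost in 5 (adjusted p = 0.0551 to 0.124), limma-voom and leaving out any 1 library of ES control or of GW3965 in ES cells.

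The day 17 response minus the day 16 response was above 0 for Hoxa2 (log2 0.57), Hoxa3 (1.07), Hoxb1 (3.63), Hoxb2 (0.61) and Hoxb3 (0.70), and below 0 for Hoxa4 (-0.64), Hoxb5 (-0.48), Hoxb8 (-0.41) and Hoxb9 (-1.78). The edgeR adjusted p values ran from 2.57e-08 (Hoxb9) to 0.0403 (Hoxa2). The calls of Hoxa3, Hoxb2, Hoxb3 and Hoxb9 held in all 15 alternatives. Those of Hoxa2, Hoxa4, Hoxb1, Hoxb5 and Hoxb8 were each lost when 1 library or another was left out (adjusted p = 0.0514 to 0.176). Hoxa2 was also lost with DESeq2 size factors (adjusted p = 0.0503) and with the replicate block (adjusted p = 0.0509), and Hoxb8 in a fit of the groups compared alone (adjusted p = 0.0627).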

How the results depend on the processing

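Of 93 calls of named members, 61 held in every alternative, 32 were lost in 1 or more and 0 reversed direction. Counts of called members moved as follows, and the cause was not tested. LG268 against ES control gave 1 in place of 0 with DESeq2, without a filter and in a fit of the groups compared alone. Both ligands gave 1 in place of 0 without a filter and with a stricter one, and 0 to 1 leaving out 1 library. LG268 against GW3965 gave 0 in place of 1 with limma-voom, 2 without a filter and 0 to 0 leaving out 1 library. The day 16 response minus that in ES cells gave 4 in place of 1 without a filter and 0 to 2 leaving out 1 library. The day 17 response minus that in ES cells gave 0 in place of 2 with limma-voom, 4 without a filter and 0 to 2 leaving out 1 library. Leaving out 1 library gave 4 to 7 in place of 9 for GW3965 at day 16, 5 to 10 in place of 11 for day 17 against day 16, 5 to 6 in place of 8 for GW3965 at day 17, and 5 to 9 in place of 9 for the day 17 minus the day 16 response. Where this left 1 library in a group, it was assumed to vary like the other groups. GW3965 in ES cells and the interaction gave 0 in every alternative.

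Replicate numbers did not pair the libraries: over 36 pairs of groups, deviations of same-numbered libraries correlated at -0.096 to 0.0691. With the replicate block, LG268 against GW3965 gave 0 called members in place of 1 (Hoxb3, adjusted p = 0.0558) and the day 16 response minus that in ES cells 0 in place of 1 (Hoxb1, 0.0542). The block also lost Hoxd3 for GW3965 at day 16 (0.054), Hoxa2 for the day 17 minus the day 16 response (0.0509) and Hoxd11 at day 8 (0.0595). With 2 libraries a group and few reads of Hox genes in ES cells, small differences there were not detectable at this depth.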
